A study of Mus musculus with 34 samples.

Results

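Enzymatic digestion of ribosomal RNA (rRNA) was compared with no selection at all in mouse liver RNA, to describe which genes and functions were lost or gained with the digestion. The comparison used 12 of the 34 libraries of the series, chosen by their labels: all 9 digestion libraries and the 3 unselected liver libraries of the same batch (batch 2). All were made from liver RNA of a single wild-type C57BL/6J mouse aged 12 weeks, whose sex was recorded as male in the notes on growth and as female in the sample fields. The digestion libraries started from 200 ng of RNA and used the Illumina ligation kit with Ribo-Zero Plus, with its adapters exchanged for ones that carry unique molecular identifiers (UMIs). The unselected libraries started from 20 ng in the TruSeq Stranded Total RNA protocol and carried the same UMI adapters. All were amplified for 13 PCR cycles. Each digestion library had its own combination of 3 PCR ramp rates (slow, medium, fast) and 3 fragment lengths (short, medium, long), and all 3 unselected libraries had a slow ramp and medium fragments. The libraries are preparations of 1 RNA source, so p-values measure technical spread only, and digestion, kit and RNA input cannot be told apart.

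As background, most RNA in a cell is rRNA, which fills a sequencing library if left in place. In the digestion method, DNA probes are hybridised to the rRNA, and RNase H cuts the RNA strand of the hybrids. The kit is sold for removal of cytoplasmic and mitochondrial rRNA and of globin mRNA, and other RNA is meant to pass. In liver the passing RNA comes mainly from hepatocytes, which make plasma proteins, lipoproteins, bile acids and the enzymes of drug metabolism. All 12 hepatocyte markers passed the filter on low counts. So did all 12 each of Kupffer cells, endothelium and stellate cells, so passing it does not test the tissue label.

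The deposited estimated counts summed to 19.9 to 20.5 M per unselected library and 20.0 to 30.2 M per digestion library. Genes of rRNA together with Lars2 took 84.8% to 85.1% of the unselected counts and 0.363% to 1.12% of the digestion counts. Outside them 3.01 to 3.04 M and 19.9 to 30.1 M counts remained, so the unselected values are the less precise ones. Levels are given as normalised CPM, the standard depth-scaled count, with the library total rescaled by edgeR's TMM method. The rescaled totals were 4.60 to 4.66 M in unselected and 32.7 to 49.0 M in digestion libraries, which is how an rRNA gene can have more counts than the rescaled total. Log2 fold changes, digestion minus unselected, were fitted at the slow ramp and medium fragments that both groups share, and can differ from the ratio of group means. A gene is said to be called, or to have risen or fallen, where the Benjamini-Hochberg adjusted p of edgeR's quasi-likelihood test over all genes tested was under 0.05.

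Of 51368 genes, 14725 were tested and 3311 were called (22.5%), 1660 of them higher after digestion (11.3%) and 1651 lower (11.2%). Most changes were small: 2372 called genes changed by under 1.5-fold, 515 by 1.5- to 2-fold, 261 by 2- to 4-fold and 163 by 4-fold or more (1.11% of genes tested). The values of the groups did not overlap for 27.3% of genes. The split into higher and lower depended on the scale. With totals outside rRNA genes and Lars2 in place of TMM, 4035 genes were called, 2929 higher (19.9%) and 1106 lower (7.51%), and the median log2 fold change of all genes moved from 0.02 to 0.12. Directions below are on the TMM scale.

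The 3 rRNA genes tested fell by over 100-fold. CT010467.1 (chr17:39846353-39848827 of GRCm38, minus strand), annotated as an rRNA gene, had 3132200, 3044400 and 3051700 normalised CPM in the unselected libraries and 1047 to 5252, with a median of 1633, in the digestion libraries. Its log2 fold change was -10.57 ± 0.44 (SE; edgeR adjusted p = 4.4e-13). The mitochondrial large-subunit rRNA mt-Rnr2 went from a mean of 131500 ± 10785 (SD, n = 3) to 294 ± 80.7 (SD, n = 9), a log2 fold change of -8.72 ± 0.28. The small-subunit rRNA mt-Rnr1 went from 113810 ± 9740 to 838 ± 181, a log2 fold change of -7.09 ± 0.21. The groups did not overlap for any of these 3. Of 306 nuclear rRNA genes in the table, CT010467.1 was the 1 that passed the filter on low counts. Counted as families, 4 were tested, of which 2 were lower and 0 higher, with a median of -0.24.

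Lars2 (chr9:123366927-123462666, plus strand), the gene of mitochondrial leucyl-tRNA synthetase, fell with the rRNA genes. It had 384750, 381990 and 367640 normalised CPM unselected, and 53.1 to 223 with a median of 71.1 after digestion (log2 fold change -11.90 ± 0.37, edgeR adjusted p = 5.3e-15). Of its 31-base words, 0.690% occur in another gene of the GENCODE M21 transcripts. Likeness of Lars2 to any rRNA sequence missing from those transcripts was not tested. Other mitochondrial tRNA synthetases did not fall to this extent. Iars2, for isoleucine, had 49.7 ± 1.1 unselected and 50.5 ± 1.40 after digestion and was not called (log2 fold change 0.05, adjusted p = 0.62). Vars2, for valine, rose (0.48 ± 0.12). Of the 17 synthetases tested it was the 1 that was higher (5.88%, against 11.3% of all genes). The 2 lower ones (11.8%, against 11.2%) included Lars2, and the median was -0.09. With totals outside rRNA genes and Lars2, 2 were higher and 1 lower, against 19.9% and 7.51% of all genes.

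**Figure D1:**
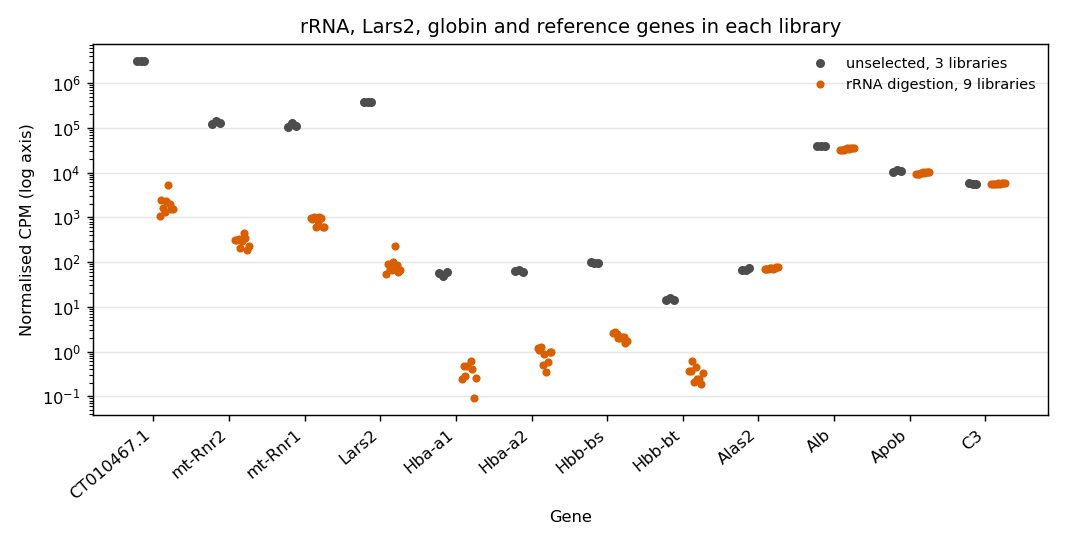
Normalised CPM (log axis) of rRNA, Lars2, globin and comparison genes in each of the 3 unselected (grey) and 9 digestion (orange) libraries. The rRNA genes, Lars2 and the globins lie far below the unselected libraries after digestion, while Alas2, Alb, Apob and C3 lie at nearly the same height. The 1 digestion library with 0 counts for Hba-a1 cannot be drawn on a log axis.

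Globin mRNAs, which red cells in the organ carry, were lost as well. All 4 tested globin genes were lower after digestion without overlap between the groups, against 11.2% of all genes called lower. Beta-globin Hbb-bs had 101.6, 95.3 and 96.6 normalised CPM unselected and 1.56 to 2.73, median 2.06, after digestion (log2 fold change -5.57 ± 0.09). Alpha-globin Hba-a2 had 64.7, 64.7 and 60.4 unselected and 0.348 to 1.27, median 0.978, after digestion (-6.89 ± 0.19). Hba-a1 (-7.06 ± 0.35) and Hbb-bt (-5.87 ± 0.29) fell too. Since Hba-a1 and Hba-a2 share most of their sequence, their sum is the safer value, and it went from 118.6 ± 4.25 to 1.19 ± 0.265 (-7.01 ± 0.10). Other erythroid genes named here did not pass the test on the TMM scale. Alas2, which starts heme synthesis in red cell precursors, had 67.0, 67.5 and 71.9 unselected and 70.4 to 76.7 after digestion, with overlap (0.07, adjusted p = 0.32), but was called higher with totals outside rRNA genes and Lars2 (0.18, edgeR adjusted p = 0.0061). Bpgm (-0.18) and Slc4a1 (0.37) were not called either. As a share of counts outside rRNA genes and Lars2, the globins went from 0.0353% ± 0.00105 to 0.000601% ± 0.000116.

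The mRNAs of the mitochondrial genome, which encode core subunits of the respiratory chain, were mostly lower. Of 13 tested, 9 were lower (69.2%, against 11.2% of all genes) and 3 higher (23.1%, against 11.3%). Their median was -1.27, beside 0.02 for all genes. The complex I subunit mt-Nd2 had 2664, 3141 and 2900 normalised CPM unselected and 662 to 975, median 834, after digestion (-1.94 ± 0.10), with no overlap. The complex I subunits mt-Nd5 (-1.71 ± 0.09), mt-Nd4 (-1.59 ± 0.08) and mt-Nd1 (-1.27 ± 0.08) and cytochrome b, mt-Cytb (-1.30 ± 0.05), fell too. The most abundant one, mt-Co1, the catalytic subunit of cytochrome c oxidase, had 12185, 13517 and 12591 unselected and 10225 to 11377 after digestion, a smaller loss (-0.27 ± 0.04). The ATP synthase subunit mt-Atp8 fell by 1.75 ± 0.16 and the light-strand mRNA mt-Nd6 by 0.77 ± 0.06. The 3 higher ones were mt-Co3 (1.18 ± 0.06), mt-Nd3 (1.07 ± 0.11) and mt-Co2 (0.59 ± 0.12), all of which share nearly all their words with a nuclear copy. Of this group, mt-Nd1, mt-Nd3, mt-Nd5, mt-Nd6 and mt-Co2, as well as mt-Atp6 below, were named after their values were seen.

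A stretch of chromosome 1 holds copies of mitochondrial DNA annotated as pseudogenes, and a read can be assigned to either copy. The pair mt-Co1 and Gm29216 is printed to show how close such copies are: over 492 aligned bases 98.78% were identical, and all 6 differences lie in the stretch shown. The differing bases are in capitals, from position 1054 of the mt-Co1 transcript (chrM:5328-6872, plus strand) and position 1 of Gm29216 (chr1:24615706-24616197, minus strand), read from the GENCODE M21 transcripts of GRCm38.
mt-Co1: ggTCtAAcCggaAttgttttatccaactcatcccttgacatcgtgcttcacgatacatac
Gm29216: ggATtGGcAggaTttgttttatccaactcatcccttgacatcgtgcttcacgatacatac
Gm29216 had no count in any unselected library and 262 to 796 normalised CPM, median 560, after digestion. Against a floor of 3 counts per library this is at least 843-fold higher, but the sum of the pair changed by -0.19 ± 0.05. The partner of mt-Co3, Gm28437, fell (-2.06 ± 0.18) as mt-Co3 rose, and their sum was not called (4162 ± 268 unselected, 4097 ± 159 digestion, log2 fold change -0.03, adjusted p = 0.70). Likewise mt-Co2 rose while Gm28661 went from 2831 ± 99.2 to 346 ± 219, and their sum changed by -1.30 ± 0.05. Summed with their copies, mt-Atp6 changed by -1.32, mt-Nd4l by -2.03 and mt-Nd3 by 0.70. On these sums 11 of the 13 were lower and 1 higher, beside 23.2% of all families called in either direction. The median of the sums was -1.30. The 13 mRNAs held 5.20% ± 0.368 of unselected counts outside rRNA genes and Lars2 and 3.70% ± 0.208 after digestion, lower in 9 of 9 libraries (two-sided exact permutation p = 0.00455, the smallest that 9 against 3 allows; adjusted over 48 lists, p = 0.00727).

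Small structured RNAs were kept to different degrees. Rn7s1, the RNA of the signal recognition particle, had 26673, 22364 and 24910 normalised CPM unselected and 16792 to 22020 after digestion, a moderate loss (-0.33 ± 0.08). Rn7sk, which restrains transcription elongation, changed by -0.35 ± 0.05. Rpph1, the RNA of ribonuclease P, rose from 732, 621 and 696 to between 828 and 1191 (0.43 ± 0.06), with no overlap. Of 44 tested snoRNA and scaRNA genes, guides of RNA modification, 24 were lower (54.5%, against 11.2% of all genes) and 3 higher (6.82%, against 11.3%), with a median of -1.08. That median depended on which members were counted: it was -0.35 over 106 families (55 lower, 9 higher), -0.50 over the 198 genes left without a filter on low counts and -0.61 over the 21 left after thinning to equal totals. The snoRNA Gm22154 went from 5.98 ± 1.65 to 0.122 ± 0.0286 (-5.27 ± 0.40), and Scarna2 changed by -0.48 ± 0.10. Among 18 spliceosomal and other snRNA genes, 6 were lower (33.3%) and 3 higher (16.7%, near the 11.3% of all genes; median -0.55; -0.08 over 23 families, 4 lower and 2 higher), with Gm22513 down from 171 ± 16.4 to 67.7 ± 11.4. As a share of counts outside rRNA genes and Lars2, snoRNA and scaRNA genes held 0.0494% ± 0.00267 unselected and 0.0250% ± 0.00168 after digestion, lower in 9 of 9 libraries (exact permutation p = 0.00455, adjusted p = 0.00727).

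Of 10 tested nuclear long noncoding RNAs, 2 were higher and 1 lower (median 0.01), near the 11.3% and 11.2% of all genes. Malat1, of nuclear speckles, had 3784, 4118 and 3889 normalised CPM unselected and 2963 to 3454 after digestion (-0.36 ± 0.03). Neat1, the scaffold of paraspeckles, was not called (-0.05, adjusted p = 0.32), nor was Kcnq1ot1 (-0.01). Ftx, of the X inactivation centre, rose from a low level, 2.96 ± 0.898 to 5.44 ± 0.293 (0.93 ± 0.21). The snoRNA host gene Gas5 had 28.6, 28.2 and 33.2 unselected and 13.1 to 18.2 after digestion (-1.02 ± 0.09). Over all 1058 long noncoding RNA genes tested, 51 were higher (4.82%) and 35 lower (3.31%), below the shares of all genes, and 72 were higher and 24 lower with totals outside rRNA genes and Lars2.

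Genes of cytosolic ribosomal proteins were mostly lower. Of 83 tested, 64 were lower (77.1%, against 11.2% of all genes tested) and 6 higher, with a median of -0.43. Rpl21, of the large subunit, had 77.5, 85.1 and 75.1 normalised CPM unselected and 12.1 to 20.2, median 15.2, after digestion, 5.24-fold lower at the shared settings (-2.39 ± 0.09). Rpl36a fell by 2.84 ± 0.13, and by 1.53 ± 0.10 when summed with genes that share its sequence. Rpl4 fell by 0.36 ± 0.04. Some members rose: Rps2 of the small subunit had 219 ± 15.7 unselected and 253 ± 7.40 after digestion (0.19 ± 0.04), and Rpsa rose by 0.19 ± 0.04. The group held 0.921% ± 0.00841 of unselected counts outside rRNA genes and Lars2 and 0.773% ± 0.0569 after digestion. Its median per library, averaged over 3 libraries, was -0.52 with short, -0.44 with medium and -0.25 with long fragments.

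Translation factors were split, with 18 of 36 lower (50%) and 6 higher (16.7%), beside 11.2% and 11.3% of all genes. Their median was -0.14, or -0.04 with totals outside rRNA genes and Lars2 (15 lower, 7 higher) and -0.22 with the unselected libraries of batch 1 as controls. Eif5b, which joins the ribosomal subunits, had 49.2, 51.0 and 47.3 normalised CPM unselected and 21.3 to 25.5 after digestion (-1.13 ± 0.07). Eif3a, a large subunit of initiation factor eIF3, had 135.5, 145.5 and 133.5 against 67.3 to 77.0 (-1.0 ± 0.05), and Eef1b2, of the elongation complex, fell by 0.97 ± 0.07. Eef2, the translocase, rose (0.22 ± 0.04). Eef1a1, which carries aminoacyl-tRNA to the ribosome, had 2256 ± 9.74 unselected and 1916 ± 43.7 after digestion (-0.24 ± 0.03).

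Nuclear-encoded subunits of oxidative phosphorylation had 50 of 76 tested genes lower (65.8%, against 11.2% of all genes) and 6 higher (7.89%, against 11.3%), with a median of -0.34. Ndufa13 of complex I had 41.9, 44.5 and 43.2 normalised CPM unselected and 7.61 to 11.4 after digestion (-2.38 ± 0.10). Atp5k of the ATP synthase (-2.42 ± 0.13) and Ndufa5 of complex I (-2.11 ± 0.14) fell too. Other subunits differed: Sdha of complex II fell by 0.50 ± 0.04, Uqcrc1 of complex III rose by 0.24 ± 0.04, and Atp5b, the catalytic ATP synthase subunit, was not called (-0.04, adjusted p = 0.50). Proteasome subunits had 21 of 34 lower (61.8%) and 2 higher (5.88%), beside the same shares of all genes (median -0.32). Psmc1, an ATPase of the proteasome base, had 52.8, 59.1 and 53.6 unselected and 27.5 to 33.3 after digestion (-0.92 ± 0.06), while Psmd11 of the lid was not called (0.08, adjusted p = 0.22).

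**Figure D2:**
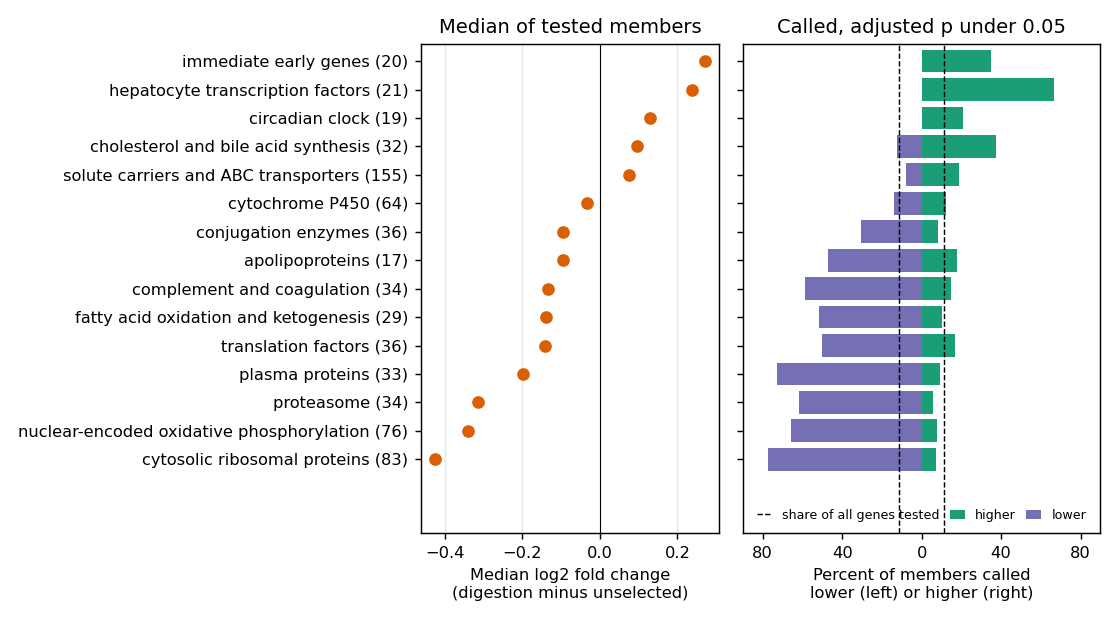
For 15 gene lists, the median log2 fold change of the tested members (left) and the percent of members called lower (purple) or higher (green) after digestion (right), with dashed lines at the 11.2% lower and 11.3% higher of all genes tested. Numbers of tested members are in brackets. Ribosomal proteins have 77.1% lower, and hepatocyte transcription factors 66.7% higher.

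Among coding genes, the changes ran with the adenine plus guanine content of the transcript, and with its GC content only above 55%. Composition was read from GENCODE M21 transcripts for 6416 of 6418 coding genes outside the mitochondrial genome averaging at least 10 normalised CPM. Of these genes, 20.0% were higher and 18.5% lower (median 0.02). Where adenine and guanine, the purines, made up over 56% of the transcript (112 genes), the median was -0.52, with 87.5% lower and 0% higher. At 54% to 56% (294 genes) the median was -0.30, at 52% to 54% (1004 genes) -0.11, and at 46% to 48% (674 genes) 0.13, with 36.8% higher. The class over 56% also had negative medians among transcripts over 2000 bases (-0.47), among those with GC of 45% to 55% (-0.55) and among genes that share under 20% of their words with another gene (-0.48). Against rRNA pull-down libraries, made with another kit from the same 200 ng, its median was -0.44, and that of the 46% to 48% class 0.20. Among transcripts over 2000 bases these medians were -0.26 and 0.28. These are descriptions over genes, which are not independent replicates.

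Rrbp1 and Eif3a are printed as examples of purine-rich coding sequence among the transcripts that fell. Each line is the 60-base coding stretch with the most A and G, which are in capitals, from the GENCODE M21 transcripts of GRCm38.
Rrbp1: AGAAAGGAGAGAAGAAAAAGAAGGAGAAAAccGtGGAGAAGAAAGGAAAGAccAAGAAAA
Eif3a: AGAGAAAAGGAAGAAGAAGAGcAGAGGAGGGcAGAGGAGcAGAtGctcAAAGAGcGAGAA
Rrbp1 (chr2:143947395-144011263, minus strand), a ribosome-binding protein of the endoplasmic reticulum, had 238.4, 231.3 and 234.5 normalised CPM unselected and 78.1 to 98.4, median 83.9, after digestion (-1.50 ± 0.04). Its transcript of 5177 bases was 63.2% purine. Ncl, which encodes nucleolin, had 95.6, 109.0 and 109.9 unselected and 39.5 to 53.0 after digestion (-1.29 ± 0.05). Rrbp1 and Ncl were named after their values were seen. Fabp1 (chr6:71199827-71205023, plus strand), the main fatty acid binding protein of liver, has a transcript of 553 bases with 58.8% purine. It had 1688, 1788 and 1697 unselected, 423 to 495 with long fragments and 290 to 301 with short fragments, and was 5.32-fold lower at the shared settings (-2.41 ± 0.06, edgeR adjusted p = 1.2e-16).

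Medians were also taken by length and GC class. Transcripts of up to 600 bases (32 genes) had a median of -0.45 and those of 600 to 1000 bases (179 genes) -0.27, while the classes over 2000 bases lay between 0.02 and 0.04. Over single digestion libraries the medians of the short classes ranged from -0.56 to -0.19 and from -0.30 to -0.08. Without ribosomal protein and oxidative phosphorylation genes, the medians of the 2 short classes were -0.18 and -0.14. The classes up to 55% GC lay between -0.05 and 0.05 with no steady trend, and the class of 55% to 60% had a median of 0.18. Transcripts with GC over 60% (182 genes) had a median of 0.40, with 73.6% higher and 5.49% lower. Among transcripts of up to 2000 bases with over 50% purine, 56 ribosomal protein genes had a median of -0.60, 35 oxidative phosphorylation genes -0.39 and 535 other genes -0.12.

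**Figure D3:**
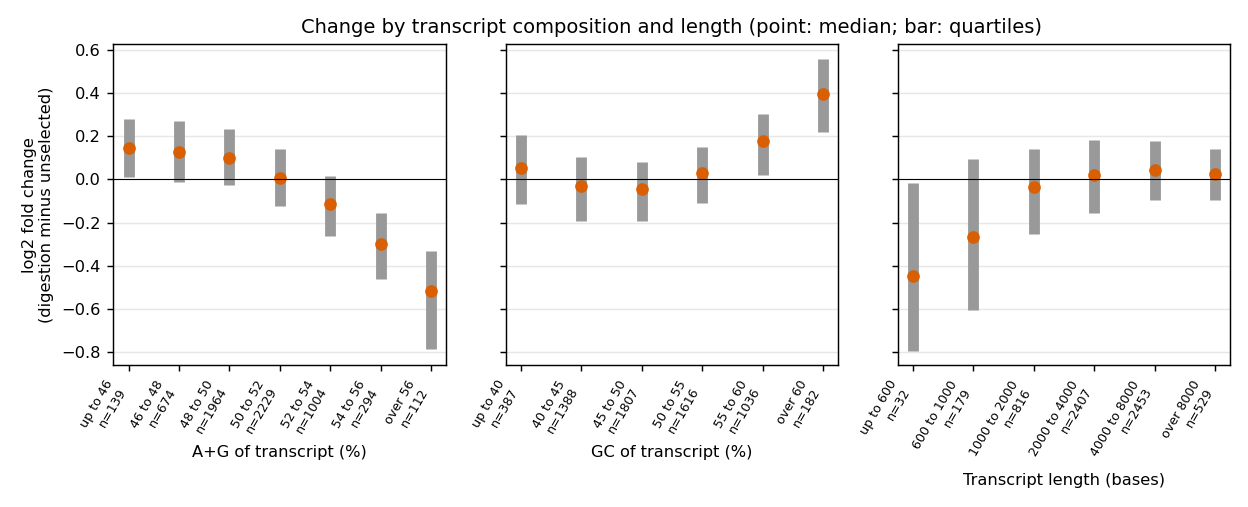
Median log2 fold change (points) and quartiles (grey bars) of coding genes by purine content, GC content and length of the transcript, with the number of genes n in each class. Medians go from 0.14 to -0.52 with rising purine content, reach 0.40 above 60% GC and are -0.45 in transcripts of up to 600 bases.

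Transcription factors of the hepatocyte were among the genes gained. Of 21 tested, 14 were higher (66.7%, against 11.3% of all genes and 20.0% of coding genes of at least 10 normalised CPM). Their median was 0.24, and 0 were lower. The 60-base coding stretches richest in G and C, in capitals, are printed for Cebpb and Cebpa, and for Jund of the early response genes described next, from the GENCODE M21 transcripts of GRCm38.
Cebpb: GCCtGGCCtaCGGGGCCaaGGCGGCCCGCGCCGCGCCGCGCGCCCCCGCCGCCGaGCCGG
Jund: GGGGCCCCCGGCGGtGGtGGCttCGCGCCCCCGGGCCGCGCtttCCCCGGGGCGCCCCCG
Cebpa: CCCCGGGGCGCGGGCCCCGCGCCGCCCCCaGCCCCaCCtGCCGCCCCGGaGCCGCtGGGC
Cebpb (chr2:167688915-167690418, plus strand; 67.2% GC), a factor of the acute phase response, had 11.6, 10.9 and 13.2 normalised CPM unselected. After digestion it had 31.6 to 44.8 with the slow ramp, 24.1 to 36.4 with the medium ramp and 16.5 to 25.6 with the fast ramp. Every digestion library lay above every unselected one. Its log2 fold change at the slow ramp was 1.81 ± 0.09, or 3.5-fold, against 2.57-fold for the ratio of means. Cebpa, a factor of hepatocyte differentiation, had 181.5, 159.8 and 168.1 unselected and 243 to 401, median 336, after digestion (1.17 ± 0.05). The pioneer factor Foxa2 rose from 6.99 ± 0.441 to 12.6 ± 0.996 (0.97 ± 0.13) and Mlxipl, the carbohydrate sensor ChREBP, by 0.33 ± 0.04. Hnf4a, a central hepatocyte factor, had 440.1, 410.7 and 438.8 unselected and 471 to 494 after digestion (0.15 ± 0.04).

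Immediate early genes respond quickly to growth and stress signals. Of 20 tested, 7 were higher (35%, against 11.3% of all genes and 20.0% of coding genes of at least 10 normalised CPM). Their median was 0.27, and 0 were lower. With the unselected libraries of batch 1 as controls the median was 0.16. Jund had 19.5, 19.1 and 19.8 normalised CPM unselected and 33.8 to 54.7, median 44.7, after digestion (1.40 ± 0.09). Junb (0.71 ± 0.10), Ier2 (0.58 ± 0.17) and the phosphatase gene Dusp1 (0.30 ± 0.07) rose less. Of 19 circadian clock genes, 4 were higher (21.1%) and 0 lower (median 0.13), near the 20.0% higher among coding genes of at least 10 normalised CPM. With totals outside rRNA genes and Lars2, 11 of the 19 were higher, against 19.9% of all genes. The clock output factor Dbp had 61, 53.2 and 54.7 unselected and 70.2 to 88.4 after digestion (0.63 ± 0.06), and Per2 of the core loop rose by 0.47 ± 0.11. The share of counts outside rRNA genes and Lars2 was higher in 9 of 9 digestion libraries for hepatocyte transcription factors (0.332% ± 0.0111 to 0.435% ± 0.0149), immediate early genes (0.0372% ± 0.00128 to 0.0510% ± 0.00106) and clock genes (0.120% ± 0.00197 to 0.143% ± 0.00275), each with exact permutation p = 0.00455 and adjusted p = 0.00727. Of all 48 lists with such a share, 38 changed, 15 higher and 23 lower. With all counts as the denominator, 47 changed, 45 higher and 2 lower.

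**Figure D4:**
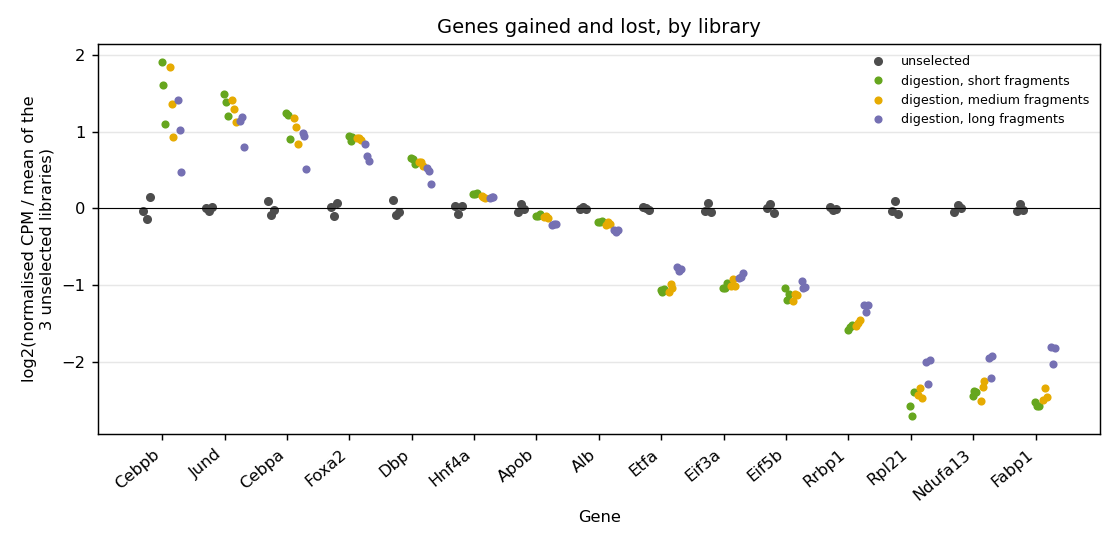
Normalised CPM of 15 genes in each library as a log2 ratio to the mean of the 3 unselected libraries (grey), with digestion libraries coloured by fragment length. Cebpb, Jund and Cebpa lie above every unselected library, and Rpl21, Ndufa13 and Fabp1 far below. For Fabp1 the long-fragment libraries (purple) lie nearest to the unselected ones.

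Genes of secreted liver proteins changed by small amounts, and their balance depended on the scale. Of all genes, 11.2% were lower and 11.3% higher on the TMM scale, and 7.51% and 19.9% with totals outside rRNA genes and Lars2. Of 33 plasma protein genes, 24 were lower and 3 higher (median -0.20), or 18 lower and 7 higher with totals outside rRNA genes and Lars2. Albumin, Alb, had 38762, 39541 and 38694 normalised CPM unselected and 31531 to 34787 after digestion (-0.20 ± 0.04), and transferrin, Trf, fell by 0.28 ± 0.03. The acute phase protein Orm1 had 194.2, 207.4 and 202.4 unselected and 118 to 138 after digestion (-0.73 ± 0.04), while transthyretin, Ttr, a carrier of thyroid hormone, rose (0.35 ± 0.04). Apolipoproteins were lower in 8 of 17 and higher in 3 (median -0.10), or lower in 6 and higher in 3 with a median of 0.01 on the other scale. Apoc1, with a transcript of 532 bases, went from 1309 ± 57.4 to 752 ± 104 (-0.90 ± 0.05), Apoe fell by 0.49 ± 0.04 and the long Apob by 0.11 ± 0.03. Complement and coagulation genes were lower in 20 of 34 and higher in 5 (median -0.13). With totals outside rRNA genes and Lars2 they were lower in 9 and higher in 7 (median -0.03). Their share of those counts was higher in 9 of 9 digestion libraries, 3.40% ± 0.0175 unselected and 3.51% ± 0.0150 after digestion (exact permutation p = 0.00455, adjusted p = 0.00727). The list holds Cfb, which gained counts as the overlapping Gm20547, outside the list, lost them (described below). That part of the rise was not separated. Fibrinogen Fga fell by 0.20 ± 0.03 and mannose-binding lectin Mbl1 by 0.63 ± 0.05. C3, the hub of complement, was not called (5677 ± 91.1 and 5689 ± 173, log2 fold change 0.01).

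Counts of metabolic genes are read against the same shares of all genes, 11.2% lower and 11.3% higher on the TMM scale and 7.51% and 19.9% with the other totals. Fatty acid oxidation and ketogenesis had 15 of 29 lower and 3 higher (median -0.14). With totals outside rRNA genes and Lars2, 9 were lower and 10 higher (median -0.04). Etfa, which passes electrons from acyl-CoA dehydrogenases, had 163.2, 160.9 and 158.3 normalised CPM unselected and 75.5 to 95 after digestion (-1.04 ± 0.04). Cytochrome P450 genes were near the background, with 9 of 64 lower and 8 higher (median -0.03), or 5 lower and 19 higher on the other scale. Cyp2e1 fell by 0.27 ± 0.03 and Cyp3a11 was not called (0.03). Cholesterol and bile acid synthesis had 12 of 32 higher and 4 lower (median 0.10), or 19 higher and 2 lower on the other scale. The bile acid enzyme gene Cyp8b1 rose (0.28 ± 0.04), and the regulator Srebf2 went from 34.2 ± 3.26 to 45.7 ± 1.79 (0.40 ± 0.07). Solute carriers and ABC transporters had 29 of 155 higher (18.7%, near the 20.0% of coding genes of at least 10 normalised CPM) and 12 lower (median 0.07), or 48 higher and 4 lower on the other scale. In the urea cycle list 4 of 10 were higher and 3 lower (5 and 2 on the other scale): Cps1, which fixes ammonia, fell by 0.23 ± 0.03 and Ass1 rose by 0.15 ± 0.03.

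Major urinary proteins, secreted proteins of near-identical sequence, showed 7 of 18 genes higher (38.9%, against 11.3% of all genes) and 3 lower (16.7%, against 11.2%). Counted as 4 families, 2 were higher and 1 lower, with a median of 0.09. Mup3 was not called (0.07, adjusted p = 0.28). Mup22 rose (0.74 ± 0.06) and Mup11 fell (-0.99 ± 0.06), but both belong to a family of 16 genes that share sequence, whose sum rose by 0.40 ± 0.05. Replication-dependent histone genes, whose mRNAs lack a poly(A) tail, had 10 of 52 higher (19.2%) and 3 lower (5.77%), with a median of 0.48. Counted as 18 families, 3 were higher and 1 lower, with a median of 0.18.

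Genes that share sequence made up most of the large changes. Of the 163 called genes with a change of at least 4-fold, 156 had a transcript sequence, and in 107 of these (68.6%) at least 50% of the 31-base words occurred in another gene. This held for 5.64% of all genes tested and 3.47% of genes called under 2-fold. Of the 163 genes, 114 belonged to a family of more than 1 gene. The summed counts of the family were under 1.5-fold changed for 73 of them and still called at 4-fold or more for 14. Summing counts this way gave 14204 families tested, of which 3294 were called (23.2%) and 73 at 4-fold or more (0.514%), 45 higher and 28 lower.

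Rpl10 and its copy Rpl10-ps3 were identical over all 642 aligned bases. Rpl10-ps3 (chr9:50344201-50344968, minus strand) had 185.1, 189.6 and 187.4 normalised CPM unselected and 0 counts in all 9 digestion libraries, at least 2533-fold lower against a floor of 3 counts per library. Rpl10 (chrX:74270812-74273135, plus strand), of the large ribosomal subunit, had 21, 31.9 and 27.6 unselected and 185 to 202 after digestion, 7.02-fold higher. The sum of their family went from 215.7 ± 7.34 to 193.0 ± 6.69 (-0.19 ± 0.04). In Rps6 and Rps6-ps4 the pseudogene gained, from 0 counts to between 12.1 and 66.8, with 12.1 to 27.5 in the long-fragment libraries, and the sum changed by -0.25 ± 0.04. Rps6 was named for its partner after values were seen, as were Ctnnd1, Rpl15, B4gat1, Brms1, Gm20388, Apoc2 and Ugt1a7c below.

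Overlapping gene models traded counts in the same way. Gm20547, which overlaps complement factor B (Cfb) on chromosome 17, had 428.1, 428.3 and 427.5 normalised CPM unselected and 0 to 0.592 after digestion, while Cfb went from 182 ± 12.8 to 536.0 ± 14.9. Their sum changed by -0.21 ± 0.03. Gm28635, which overlaps the catenin gene Ctnnd1, went from 48.6 ± 14.7 to 0 counts as Ctnnd1 rose by 0.60 ± 0.07, with a sum of -0.13 ± 0.04. Rdh16f1 and Rdh9, named as retinol dehydrogenases, went from 30.6 ± 0.818 to 0.0491 ± 0.0977 and from 7.72 ± 0.588 to 32.8 ± 1.31, with a sum of -0.20 ± 0.07. AC124502.3 spans B4gat1 and Brms1, and the sum of the 3 was not called (-0.16, adjusted p = 0.33). Paired annotations of Nnt and of Sept2 had sums of 0.20 and -0.02. The sums that held Tmem254c (-0.15), Ugt1a6a with Ugt1a7c (-0.14), Rpl15 with Rpl15-ps3 (-0.02), Gm44805 with Apoc2 (0.11) and Galnt2 with Gm20388 (0.49) were also small. Directions of these single genes are uncertain.

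**Figure D5:**
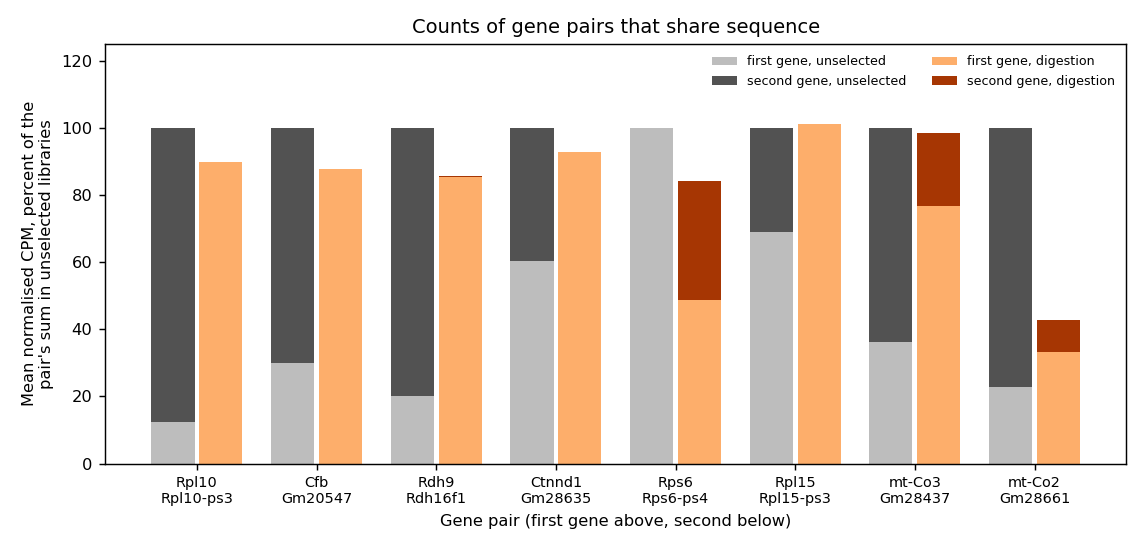
Mean normalised CPM of 8 gene pairs as percent of the pair's sum in the unselected libraries, with the first gene in light and the second in dark colour, for unselected (grey) and digestion (orange) libraries. For Rpl10, Cfb, Rdh9, Ctnnd1 and Rpl15 the second gene is at or near 0 after digestion while the bar keeps most of its height. The bar of mt-Co2 with Gm28661 is the lowest after digestion.

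With shared sequence set aside, 66 genes with a mean of at least 10 normalised CPM in the higher group and under 20% shared words changed by at least 2-fold without overlap between the groups, 59 lower and 7 higher. Over all genes tested, with no such limits, 2.88% were called at 2-fold or more. Among the 59 were 47 nuclear coding genes other than Lars2. Of these, 34 had over 52% purine, which 22% of the coding genes above have. A transcript of up to 1000 bases was found in 12 of the 47. Of the 6416 coding genes above, 32 had up to 600 bases and 179 had 600 to 1000. The ribosomal protein and oxidative phosphorylation lists, with 83 and 76 tested genes, held 14 of the 47. The 7 higher ones were Cebpb, Jund, Foxq1, Cebpa, H2afj, Nr2f6 and Vma21. GC over 55%, which 19% of the coding genes above have, was found in 5 of them. Foxq1 (1.34 ± 0.13), a forkhead factor, Nr2f6 (1.08 ± 0.10), an orphan nuclear receptor, and Vma21 (1.05 ± 0.10), an assembly factor of the lysosomal proton pump, were named after their values were seen. The histone gene H2afj went from 4.90 ± 0.880 to 11.1 ± 0.832 (1.16 ± 0.20).

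Markers of the cell types in liver were also counted. Of 12 hepatocyte markers 4 were higher and 6 lower (5 and 3 with totals outside rRNA genes and Lars2). Of 12 markers each, 6 of Kupffer cells, 4 of endothelium and 5 of stellate cells were lower and 0 higher, with medians of -0.29, -0.13 and -0.10, beside 11.2% lower of all genes and 18.5% lower of coding genes of at least 10 normalised CPM. With totals outside rRNA genes and Lars2, 4, 3 and 3 of them were lower, and 1 of stellate cells higher. The macrophage receptor Marco had 3.65, 5.43 and 4.99 normalised CPM unselected and 1.49 to 2.36 after digestion (-1.38 ± 0.24), and its transcript was 58.0% purine. Clec4f of Kupffer cells fell by 0.44 ± 0.07, Kdr of endothelium by 0.38 ± 0.05 and Dcn of fibroblasts by 0.36 ± 0.07. Of 5 cholangiocyte markers 1 was higher, and of 9 lymphocyte and neutrophil markers 0 were called. All these libraries came from the same liver RNA, so these values are differences between preparations and not in cells.

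The digestion libraries were also compared with the 9 rRNA pull-down libraries of batch 2, in which rRNA is bound to probes and removed without being cut. They shared the RNA input but not the kit. Of 15190 genes tested, 10889 differed (71.7%), 5347 higher (35.2%) and 5542 lower (36.5%) in digestion. Of the 272 tested genes that the naming rule selected, 230 differed, 74 higher and 156 lower. With totals outside rRNA genes and Lars2 in place of TMM, 105 were higher and 114 lower. Ribosomal protein genes were lower than in pull-down in 79 of 83 and higher in 0 (median -1.07), and snoRNA and scaRNA genes lower in 59 of 67 (median -2.56). Nuclear long noncoding RNAs were higher in 10 of 10 (median 0.68), and mitochondrial mRNAs higher in 8 of 13 and lower in 0 (median 0.70). Hepatocyte transcription factors were higher in 16 of 21 and lower in 3 (median 0.28), with Cebpb higher by 1.48 ± 0.13. Among coding genes of at least 10 normalised CPM, the median rose with length, from -0.96 up to 600 bases to 0.41 over 8000 bases. Median lengths were 1094 bases in ribosomal protein, 145.5 in snoRNA and scaRNA, 6137 in nuclear long noncoding and 784 in mitochondrial mRNA genes. The part of length in these differences was not tested. Digestion left less mt-Rnr1 (-4.73 ± 0.13), mt-Rnr2 (-8.84 ± 0.23) and globin Hbb-bs (-6.29 ± 0.05) than pull-down. CT010467.1 (2.78 ± 1.48, adjusted p = 0.098) and Lars2 (1.46 ± 1.47, adjusted p = 0.38) did not pass the test in edgeR with all 9 pull-down libraries. The pull-down library made with long fragments at the slow ramp held only 1.13 M counts, 12.7% of them in CT010467.1 and 2.05% in Lars2. The other 8 held 0.00865% to 0.0216% in CT010467.1 and 0.00104% to 0.00212% in Lars2, below all digestion libraries (0.1701% to 0.851% and 0.00862% to 0.0361%). Without that library, CT010467.1 was higher in digestion by 3.897 ± 0.28 (edgeR adjusted p = 1.4e-10) and Lars2 by 2.65 ± 0.23 (edgeR adjusted p = 1.9e-09). Purine-rich transcripts differed among themselves, with Rrbp1 lower than in pull-down (-0.81 ± 0.06) and Eif5b higher (0.77 ± 0.05).

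The number of genes detected was compared at equal totals outside rRNA genes and Lars2, although the makeup of these totals differed, with mitochondrial mRNA as given above. With every library thinned to 3.01 M counts outside rRNA genes and Lars2, digestion libraries had 10675 to 10754 genes with at least 10 counts (median 10711) and unselected libraries 10573 to 10617 (median 10610), with no overlap. Protein-coding genes numbered 10231 to 10331 against 10132 to 10193, and long noncoding RNA genes 273 to 287 against 261 to 269. Processed pseudogenes numbered 46 to 66 against 54 to 67, with overlap. At full depth digestion libraries reached 14097 to 14764 genes and unselected libraries 10577 to 10636.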

How the data were processed

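RNA sequencing counts per gene were analysed for 9 rRNA digestion and 3 unselected libraries of mouse liver RNA, with 9 rRNA pull-down libraries for comparison. The authors deposited estimated counts per gene, made with UMI-tools 1.1.1, Salmon 1.9.0 and R 4.4.0 on GRCm38, per the submitters' processing notes. These expected counts were rounded to whole numbers, and 0 value columns were left unused. Of 51368 gene identifiers, 50896 matched GENCODE M21, and the 472 others held at most 0.0452% of a library. In R 4.3.3, edgeR 4.0.16 (filterByExpr, TMM, quasi-likelihood test, Benjamini-Hochberg adjustment) was fitted with group, ramp and fragment length, leaving 6 residual degrees of freedom. The fit was tested on simulated data. Shares of counts were compared by two-sided exact permutation tests over 220 arrangements, adjusted over 48 lists. Depth was 3.01 to 30.1 M counts outside rRNA genes and Lars2, and the floor was 3 counts per library, for counting error only. Gene families joined genes that shared at least 50% of their 31-base words, an alternative chosen after the data were seen. Alternatives also covered DESeq2 1.42.0, other scalings, filters, library subsets and thinning. For gene calls each of the 9 digestion and 3 unselected libraries was left out in turn. For shares only unselected libraries were left out, and against pull-down only 1 pull-down library.

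Named genes were the 10 coding and 5 other genes with the largest changes each way among called, non-overlapping genes with a mean of at least 10 normalised CPM in the higher group, and from each list up to 4 of its most abundant and up to 3 of its most changed called members. Members, lists, composition classes and families were chosen with earlier results of these data known, and genes named outside the rule are stated as such. A few genes and sequences are not reported here. Strand of counting and the selection of transcripts for quantification were not given in the sources used here.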

Additional observations from a re-analysis of the deposited data

Results flagged for a closer look

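In 143 quantities of the text, the 9 digestion libraries were examined for a highest or lowest library whose gap to the nearest other exceeded Dixon's 95% critical value for 9 samples, which chance exceeds in about 1 in 20 groups, and 7 did. Of these, 5 came from the library with a fast ramp and medium fragments. Its share of counts in rRNA genes and Lars2 was 1.12% (next highest 0.616%), that of CT010467.1 was 0.851% (0.398%) and that of Lars2 was 0.0361% (0.0166%). In normalised CPM, the same library had 5252 for CT010467.1 (next highest 2421) and 223 for Lars2 (102.5).

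The pseudogene Gm28438 had 11.8 normalised CPM in the slow-ramp digestion library of long fragments and 0 in the other 8. Junb had 29.7 normalised CPM in the library with a medium ramp and short fragments, and 27.7 in the next highest.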

How the results depend on the processing

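With 3311 genes called in the report, counts stayed within 1.5 times that number with DESeq2 (3132), totals outside rRNA genes and Lars2 (4035), no filter on low counts (3533), 10 counts in 3 libraries (3293), all 33 liver libraries (2270), no covariates (3400), unselected libraries of batch 1 as controls (3136) and family sums (3294). Library totals, which keep the rRNA in the denominator, gave 14644 called genes, 14605 higher and 39 lower, with a median log2 fold change of 2.84. The 3 digestion libraries with medium fragments gave 1120, thinning to equal totals outside rRNA genes and Lars2 1999 and a test for changes above 2-fold 140, by construction with fewer libraries, fewer counts and a stricter threshold. Leaving out 1 unselected library gave 2575 to 2764, and leaving out 1 digestion library 2587 to 3258. No paired analysis was possible because the digestion libraries carry no replicate numbers in the labels and share none with the unselected ones.

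Changed list shares numbered 36 to 37 without 1 unselected library and 47 over all counts. Against pull-down, 238 named genes differed without the shallow pull-down library and 219 (105 higher, 114 lower) with totals outside rRNA genes and Lars2. The medians of ribosomal proteins (-0.50 to -0.39), hepatocyte transcription factors (0.15 to 0.25) and transcripts over 56% purine (-0.59 to -0.48), each relative to the median of all genes, kept their sign in 23 of 23 alternatives.

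Directions turned for single genes under 2 settings. With family sums, log2 fold changes were mt-Co2 -1.30, mt-Co3 -0.033, Gm29216 -0.19, Gm10222 -2.03, Gm28438 0.70, Rpl10 -0.19, Rps6-ps4 -0.25, Rpl15 -0.016, Cfb -0.21, Mup11 0.40, Rdh9 -0.20, Ctnnd1 -0.13, Nnt (ENSMUSG00000025453) 0.20, Sept2 (ENSMUSG00000116048) -0.021, Tmem254c -0.15, Gm20388 0.49, B4gat1 -0.16, Brms1 -0.16, Ugt1a6a -0.14. With library totals they were mt-Co1 2.56, mt-Cytb 1.53, mt-Nd1 1.56, mt-Nd2 0.89, mt-Nd4 1.24, mt-Nd4l 0.13, mt-Nd5 1.12, mt-Nd6 2.06, mt-Atp8 1.08, Gm28437 0.77, Gm10925 1.36, Rn7s1 2.50, Rn7sk 2.48, Rmrp (ENSMUSG00000115420) 1.34, Scarna2 2.35, Gm22513 1.55, Gas5 1.81, Malat1 2.47, Rpl4 2.47, Rpl21 0.44, Rps6 1.499, Sdha 2.33, Atp5k 0.41, Ndufa13 0.45, Ndufa5 0.72, Psmd2 2.31, Psmc1 1.91, Eef1a1 2.59, Eif3a 1.83, Eif5b 1.70, Eef1b2 1.86, Alb 2.63, Trf 2.55, Orm1 2.10, Apoe 2.34, Apoa1 2.58, Apoc1 1.93, Apob 2.72, Fga 2.63, Mbl1 2.19, Fabp1 0.42, Etfa 1.79, Cps1 2.60, Cyp2e1 2.56, Mup11 1.84, Nnt (ENSMUSG00000025453) 1.25, Sept2 (ENSMUSG00000026276) 1.18, Tmem254b 1.01, Clec4f 2.39, Marco 1.44, Kdr 2.45, Dcn 2.46, Rrbp1 1.33, Ncl 1.54. For library totals the shift of all genes, given above, is larger than each of these losses.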
